A study of Mus musculus with 6 samples.

Results

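The potassium channel genes of the mouse, whose symbols begin with Kcn, were described by the accessibility of the chromatin around them. Members were all peaks of the deposited table whose annotated gene carries such a symbol: 464 of 75134 peaks, assigned to 84 of 16019 genes in 20 subfamilies. Of these, 443 peaks passed the filter on low counts and were tested, and 21 were too low. The assay was ATAC-seq: Tn5 transposase cuts and tags open chromatin in nuclei, which here came from frozen quadriceps femoris, a skeletal muscle of the thigh. The genotypes were Prr14-KO (replicates 4, 5 and 7) and Prr14-WT (replicates 3, 4 and 8), 3 libraries each, and the Prr14 product links heterochromatin to the lamina at the edge of the nucleus. The sources used here give no age, sex or strain, nor which part of Prr14 was deleted. Whether the libraries stem from different animals is not said in the labels, so a p-value here covers only how these samples vary, and that variation may be technical. In whole muscle, fewer nuclei of a type and less open chromatin per nucleus cannot be told apart.

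Potassium channels let potassium ions leave or enter a cell along their gradient and so set the resting potential and end the action potential. Voltage-gated channels are built of alpha subunits that open on depolarisation, inward rectifiers hold the membrane near rest, tandem-pore channels carry background current, and calcium- or sodium-activated channels couple current to ion levels inside the cell. Auxiliary subunits bind these pores and change their gating or traffic. In skeletal muscle, inward rectifiers, delayed rectifiers and ATP-sensitive channels keep the sarcolemma excitable during repeated contraction.

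Read counts in peaks were 7608514 to 12061822 per library, and the biological coefficient of variation over all peaks was 0.201. WT replicate 4 stood apart with a composition (TMM) factor of 0.940, against 1.00 to 1.02 in the other 5 libraries. Promoter peaks of 10 skeletal muscle markers summed to between 838 and 1314 CPM (read counts scaled to the TMM-adjusted library size) in WT and between 936 and 1029 in KO. By the peak test, 1 of these 10 promoters was lower (Myh4, a fast myosin), and of all 58 tested peaks at these genes 12 were lower and 1 was higher. Sums of 7 endothelial marker promoters ran from 50.8 to 77.3 CPM in WT and from 58.4 to 83.8 in KO, with 1 higher (Cldn5). Smooth muscle and pericyte markers (6 promoters), Schwann cell markers (5), neuronal markers (3), fibro-adipogenic markers (7) and macrophage markers (3) had no promoter that passed the test. Over all tested peaks of these lists, 3 of 33 smooth muscle and pericyte peaks and 1 of 33 Schwann cell peaks were higher, 1 of 14 neuronal and 1 of 21 macrophage peaks were lower, and 3 of 70 endothelial peaks were higher and 2 lower. By summed counts, 2 skeletal muscle markers, 1 neuronal and 1 endothelial marker were lower and 1 endothelial marker was higher. The corresponding sums were 61.8 to 69.2 against 53.4 to 62.1, 123 to 127 against 126 to 142, 17.6 to 24.1 against 16.3 to 21.5, 93.2 to 117.8 against 98.1 to 123.8, and 19.0 to 23.6 against 13.9 to 20.5 CPM in WT and KO. Defining markers with no promoter peak in the table included Pecam1, Emcn and Vwf of endothelium, Sox10 and S100b of Schwann cells, Rbfox3, Snap25 and Tubb3 of neurons, and Ptprc, Cd68 and Adgre1 of macrophages. What part these cell types have in the results below was not tested. The only Prr14 peak lay over its promoter (chr7:127470286-127472182, GRCm38), with 62.0 ± 4.71 CPM in WT and 60.5 ± 9.75 in KO (SD, n = 3 each), but without knowledge of the deleted part it does not check the labels.

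Accessibility at a small number of potassium channel peaks differed between the genotypes, in both directions. In edgeR's quasi-likelihood test over all 73896 tested peaks, with a Benjamini-Hochberg adjusted p below 0.05, 13 of the 443 potassium channel peaks (2.93%) were higher in KO and 23 (5.19%) were lower. Over all tested peaks, 2.77% were called higher and 4.23% lower, so both shares lie near the background. The median log2 fold change of KO over WT was -0.06 for the potassium channel peaks and -0.01 for all peaks. The 3 KO libraries lay wholly above the 3 WT libraries at 44 potassium channel peaks (9.93%) and wholly below at 59 (13.3%), beside 9.17% and 11.2% of all tested peaks. All 36 called peaks were among these. In the authors' deposited table, 14 of 379 potassium channel peaks with a value were higher and 7 lower at an adjusted p below 0.05. Of all peaks with a value there, 2.44% were higher and 0.872% lower. The authors' library factors ran only from 0.977 to 1.035, while read counts in peaks ran from 7608514 to 12061822. That scaling thus leaves differences in reads in peaks almost uncorrected. Total sequenced reads were not used here, and which scaling is nearer the truth was not tested. With these factors in edgeR, the median of all peaks shifted to 0.19 and that of the potassium channel peaks to 0.14. Under that scaling 55.0% of the called potassium channel peaks were higher, against 36.1% with TMM, and 68.3% against 39.6% of all called peaks. Without KO replicate 5, 6 potassium channel peaks were higher and 12 lower. Without WT replicate 3, 8 were higher, and without WT replicate 4, 14 were lower. Calls over all peaks fell too, from 2049 higher and 3128 lower to 959 and 1511 without KO replicate 5. They were 1279 higher without WT replicate 3 and 1409 lower without WT replicate 4. With the authors' library factors 18 of the 36 calls did not pass: 4 at Kcnma1, 3 at Kcnq5 (its promoter among them), 2 at Kcnj2 and 1 each at Kcnb2, Kcnj6, Kcnj9, Kcnq1, Kcnt1, Kcna10, Kcnc1, Kcne4 and Kcnab2 (its promoter). None of the 36 called peaks changed sign in 13 other settings or in the authors' deposited table, and 10 kept their call in all of these. The settings reuse the same counts on peaks picked for their change, so unchanged signs are no separate test of direction.

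Promoters of these genes differed seldom. A peak within 3 kb of the start site was found for 54 of the 84 genes and tested for 53. Of these promoter peaks 1 was higher, at Kcnab2, 2 were lower, at Kcnf1 and Kcnq5, and 50 did not pass, with a median log2 fold change of -0.05. Among the promoter peaks of all genes 0.894% were higher and 0.699% lower, with a median of 0.06. The other called potassium channel peaks, 12 higher and 21 lower, lay away from the promoter peaks. The potassium channel peaks as a group lay far from their start sites: 42.9% were intronic and 35.8% intergenic, against 36.4% and 32.1% of all peaks, and 12.5% lay within 1 kb of a start site, against 19.1%. Their median distance to the start site was 31147 bases, against 17530 bases for all peaks, and 41.2% lay more than 50 kb away, against 25.6%. Assignment over such distances is uncertain: 16 of the 36 called peaks lay outside the RefSeq span of their assigned gene, and 9 lay over another RefSeq gene.

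**Figure D1:**
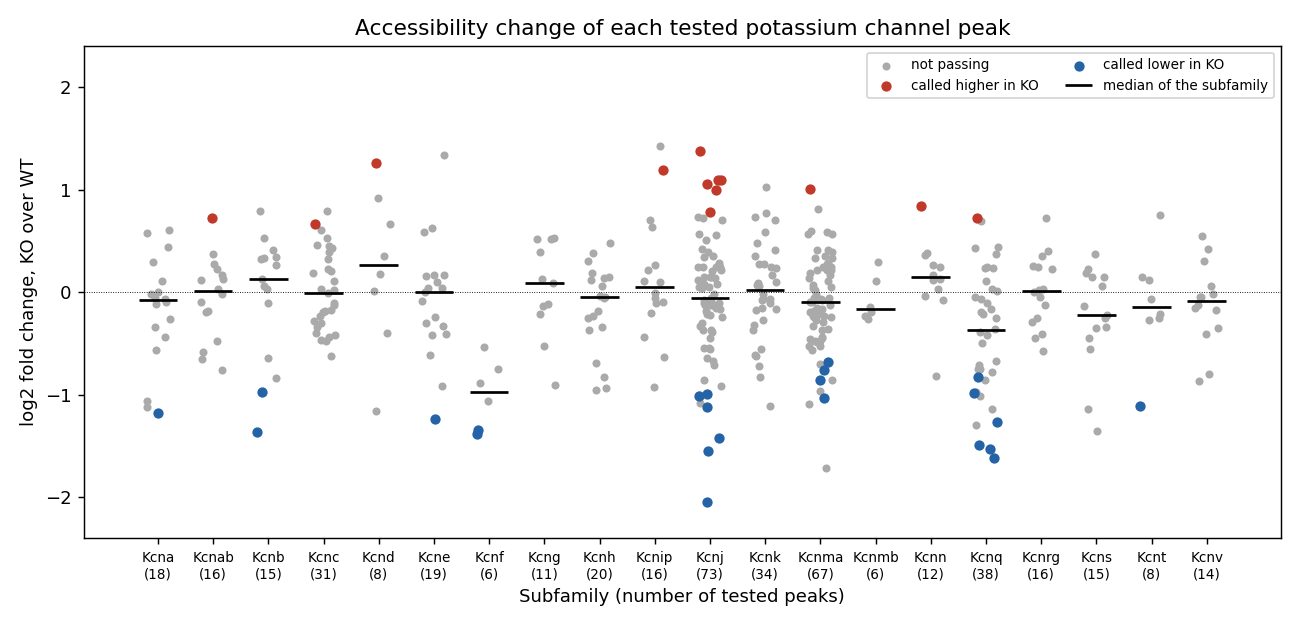
Each point is 1 tested peak, placed by the subfamily of its annotated gene (horizontal axis, with the number of tested peaks) and its log2 fold change of KO over WT (vertical axis); coloured points were called, and bars are subfamily medians. Called were 12 of 73 peaks in Kcnj (6 higher, 6 lower), 7 of 38 in Kcnq (1 higher, 6 lower), 2 of 6 in Kcnf (both lower) and none of 34 in Kcnk.

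To show what the promoter windows hold at the loci described next, the 250 bases upstream of a RefSeq start site are given for the called promoters of Kcnab2 and Kcnq5 and for the uncalled promoter of Kcnj2, from RefSeq on GRCm38.p6, 5′ to 3′ on the gene's strand. Each of these windows lies whole inside the gene's promoter peak. RefSeq has 2 further starts for Kcnab2, downstream of the one shown, and 1 for Kcnq5, upstream of it, whose windows lie outside these peaks. Capitals mark matches, on either strand, to the motifs CCAAT (the CCAAT box), GGGCGG (the GC box) and CAGCTG (an E-box), chosen after the sequences were seen. TGANTCA (AP-1), AAGGTCA (an ERR receptor element) and the MEF2 consensus were also searched and had no match in these 3 windows.
Kcnab2, chr4:152477550-152477799, minus strand: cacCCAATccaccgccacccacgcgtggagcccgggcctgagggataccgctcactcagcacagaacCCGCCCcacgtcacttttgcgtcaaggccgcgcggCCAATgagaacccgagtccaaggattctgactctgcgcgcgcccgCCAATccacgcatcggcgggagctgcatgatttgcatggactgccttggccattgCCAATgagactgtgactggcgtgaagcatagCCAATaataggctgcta
Kcnq5, chr1:21961943-21962192, minus strand: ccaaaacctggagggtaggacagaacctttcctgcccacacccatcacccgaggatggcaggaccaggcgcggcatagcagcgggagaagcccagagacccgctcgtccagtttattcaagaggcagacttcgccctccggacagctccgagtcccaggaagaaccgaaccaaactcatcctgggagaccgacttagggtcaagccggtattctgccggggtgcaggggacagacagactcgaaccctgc
Kcnj2, chr11:111065914-111066163, plus strand: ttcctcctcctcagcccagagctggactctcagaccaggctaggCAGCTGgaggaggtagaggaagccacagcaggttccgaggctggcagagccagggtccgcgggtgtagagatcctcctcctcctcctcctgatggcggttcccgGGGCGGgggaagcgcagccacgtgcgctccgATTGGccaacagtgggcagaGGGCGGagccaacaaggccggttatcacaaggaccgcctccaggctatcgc
The Kcnab2 window holds 5 CCAAT matches and 1 GC box, that of Kcnj2 holds 2 GC boxes, 1 CCAAT match and 1 E-box, and the Kcnq5 window shown holds none of the motifs searched, while that of its other start (chr1:21962651-21962900) holds 1 CCAAT match. Among 32851 RefSeq mouse promoter entries of the same length, CCAAT matched in 33.8%, GGGCGG in 32.7%, CAGCTG in 13.0%, TGANTCA in 6.75%, AAGGTCA in 4.08% and the MEF2 consensus in 2.92%. These matches are letters in a window and say nothing of a factor bound there.

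Kcnf1, which encodes an electrically silent voltage-gated subunit that assembles with Kcnb channels, gave the lowest adjusted p of all potassium channel peaks. Its peak over the gene body (chr12:17173726-17176861) ends just short of the RefSeq start site at 17176888. With an annotated distance of 1594 bases it is the promoter peak of the gene by the 3 kb rule. It had 57.4, 69.1 and 48.4 CPM in WT replicates 3, 4 and 8 and 23.6, 24.0 and 21.6 CPM in KO replicates 4, 5 and 7. The WT libraries were all above the KO libraries, and the lowest WT value was more than 2 times the highest KO value. Mean accessibility dropped from 58.3 ± 10.4 CPM to 23.1 ± 1.29 CPM in KO (log2 fold change -1.34, SE 0.19, edgeR adjusted p = 3.31e-10, n = 3 each). This peak spans most of the gene (RefSeq chr12:17172100-17176888), while the 250 bases upstream of the RefSeq start lie outside it. An intergenic peak 43817 bases upstream, over the noncoding gene Gm36568 (chr12:17220273-17221136), went from 20.9 ± 3.47 CPM in WT to 8.02 ± 0.289 CPM in KO (log2 fold change -1.38, SE 0.22, edgeR adjusted p = 6.55e-08). It had 17.3, 24.2 and 21.2 CPM in WT against 8.16, 8.22 and 7.69 CPM in KO, again with no overlap. All 6 Kcnf1 peaks had log2 fold changes below 0, from -1.38 to -0.53, and the 4 weaker ones did not pass. The signs were also negative at all 6 in the authors' deposited table.

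Lower peaks at this locus were also assigned to other genes. Of 7 tested peaks assigned to the next gene, Pdia6, a protein disulfide isomerase of the endoplasmic reticulum, 5 were lower. They lie between Kcnf1 and the Pdia6 start site, and the one with the lowest fold change (chr12:17238806-17239610) went from 26.7 to 5.65 CPM (log2 fold change -2.24, SE 0.22, edgeR adjusted p = 3.40e-20). The Pdia6 promoter peak had a log2 fold change of -0.03 (SE 0.20, edgeR adjusted p = 0.968). On the other side of Kcnf1, the 2 downstream peaks assigned to it and the 3 assigned to 2410004P03Rik had values from -0.88 to -0.35 and did not pass.

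Kcnq5 encodes a voltage-gated subunit of the slowly activating channels known as M-type in neurons and present in muscle. All 12 of its tested peaks had log2 fold changes below 0, from -1.62 to -0.25, and 5 of the 12 were lower by edgeR, with the same signs at all 12 in the authors' deposited table. The promoter peak (chr1:21960196-21962478) had 26.1, 31.2 and 26.6 CPM in WT and 16.5, 14.1 and 16.7 CPM in KO, so that the groups did not overlap. Means were 27.97 ± 2.80 CPM in WT and 15.8 ± 1.49 CPM in KO (log2 fold change -0.83, SE 0.20, edgeR adjusted p = 0.00121), but without KO replicate 5 it was -0.72 and did not pass (adjusted p = 0.0728), nor with the authors' library factors (-0.64, adjusted p = 0.354). The other called peaks form a group in an intron, 212210 to 247208 bases downstream of the start site. At the intronic peak chr1:21723403-21725361 the WT libraries had 10.3, 13.7 and 10.7 CPM and the KO libraries 4.08, 3.78 and 3.48 CPM. This was a fall of 1.62 on the log2 scale (SE 0.26, edgeR adjusted p = 1.72e-07). Beside it, chr1:21713957-21714788 had 6.97 ± 1.09 CPM in WT and 2.41 ± 0.328 CPM in KO (log2 fold change -1.53, SE 0.32, edgeR adjusted p = 0.000112). The remaining pair, chr1:21732995-21733680 (-1.27, edgeR adjusted p = 0.00748) and chr1:21748888-21749853 (-0.99, edgeR adjusted p = 0.00942), had weaker support. With WT replicate 4 left out they were at -1.07 and -0.60 (adjusted p = 0.105 and 0.322), and with KO replicate 5 left out at -1.22 and -0.90 (adjusted p = 0.0635 and 0.111). The latter was at -0.85 when KO replicate 7 was omitted (adjusted p = 0.0929).

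The RefSeq span of Kcnq5 is long (chr1:21398399-21962650, 564252 bases) and holds 19 tested peaks, of which 9 were lower. Of these 19, 9 are assigned in the deposited table to Khdc1b, the gene beyond the 3′ end of Kcnq5, and 4 of those 9 were lower. They included chr1:21427609-21428792, which went from 22.1 to 7.47 CPM (log2 fold change -1.57, SE 0.22, edgeR adjusted p = 3.78e-10). A count by annotated gene thus holds 5 of the 9 lower peaks inside the Kcnq5 gene. A further case was Kcnab1, a beta subunit of voltage-gated channels. None of its 9 tested peaks was called by edgeR (1 had an unadjusted p below 0.05), while its RefSeq span held 24 tested peaks with 1 higher and 4 lower, all 5 assigned to Ssr3 or Vmn2r7.

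**Figure D2:**
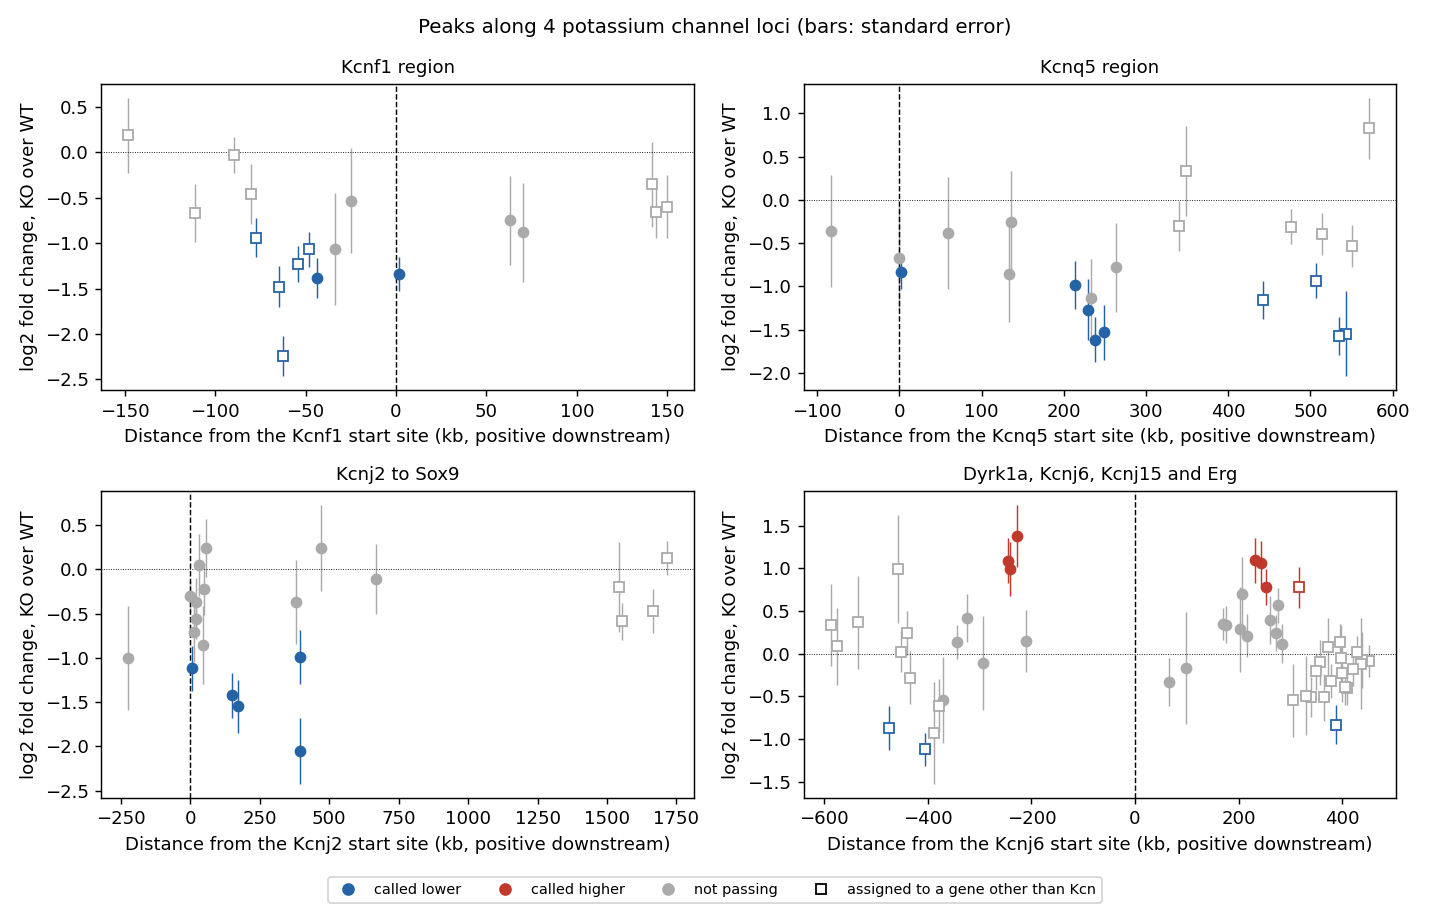
Log2 fold change of KO over WT (vertical axis, bars are standard errors) against distance from the start site of the named gene in kb (horizontal axis) for the tested peaks of 4 regions; filled circles are assigned to potassium channel genes and open squares to other genes, and the start site is that of RefSeq, which for Kcnj6 differs from the annotated one. Lower peaks continue past Kcnf1 into the peaks assigned to Pdia6 and run along Kcnq5, those of Kcnj2 lie downstream of the gene, and higher peaks lie at Kcnj6 and Kcnj15.

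Fewer peaks were called at Kcnq3 and Kcnq1. Kcnq3, which forms M-type channels with other Kcnq subunits, had 1 of 4 tested peaks lower (chr15:66320106-66320685, 4.53, 8.74 and 3.55 CPM in WT and 2.41, 1.56 and 2.11 CPM in KO). The log2 fold change was -1.49 (SE 0.35, edgeR adjusted p = 0.00111). WT replicate 4 had the highest value here, and without it the change was -0.98 (adjusted p = 0.222). Kcnq1, a delayed rectifier subunit, had 1 of 11 peaks higher, in an intron (chr7:143123987-143126104, 21.0, 20.1 and 18.3 CPM in WT and 32.4, 35.02 and 30.6 CPM in KO). The groups were clearly separate there (log2 fold change 0.72, SE 0.19, edgeR adjusted p = 0.00518), although without KO replicate 5 the adjusted p was 0.0616 at a log2 fold change of 0.70, and with the authors' library factors it was 0.0959 at 0.92. The RefSeq span of Kcnq1 held 26 tested peaks, with 2 higher and 1 lower. Of these 26, 16 are assigned to Cdkn1c, with 1 higher and 1 lower. Over the whole Kcnq subfamily the median was -0.37 on the log2 scale, 27 of 38 tested peaks lay below 0, and in the authors' deposited table the median was -0.16, with 22 of 38 below 0. The 6 lower Kcnq peaks became 3 when KO replicate 5 was omitted, 3 with the authors' library factors and 2 in the authors' deposited table.

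Among the other voltage-gated alpha subunits, calls were single peaks. Kcnd3 encodes a pore of the fast inactivating A-type current. Its intronic peak (chr3:105520922-105522054), 62706 bases downstream of the start site, had 6.38, 8.19 and 11.6 CPM in WT and 21.96, 20.6 and 19.3 CPM in KO. The KO libraries were all well above the WT libraries, with means of 8.72 ± 2.64 CPM in WT and 20.6 ± 1.32 CPM in KO (log2 fold change 1.26, SE 0.22, edgeR adjusted p = 1.37e-06). All 5 tested Kcnd3 peaks had log2 fold changes above 0, but the promoter was at 0.17 (SE 0.25, edgeR adjusted p = 0.814), and a second intronic peak (chr3:105538506-105539401) at 0.66 did not pass (edgeR adjusted p = 0.0597).

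Kcnb2, which encodes a delayed rectifier pore, had 2 of 7 peaks lower. The intronic one (chr1:15471506-15472100) had 5.76, 9.75 and 8.16 CPM in WT and 3.45, 1.97 and 3.85 CPM in KO, a log2 fold change of -1.36 (SE 0.29, edgeR adjusted p = 0.000231). The one upstream of the gene (chr1:15255732-15256853) was at -0.97 (SE 0.29, edgeR adjusted p = 0.0147). Omitting WT replicate 8, KO replicate 5 and KO replicate 7 in turn left it at -0.58, -0.79 and -0.85 (adjusted p = 0.384, 0.214 and 0.106).

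Kcnc1, a fast delayed rectifier subunit, had 1 of 14 peaks higher (chr7:46447950-46449978, log2 fold change 0.66, SE 0.19, edgeR adjusted p = 0.0114; 0.145 with the authors' library factors). That peak lies over Sergef, and its call ended without WT replicate 3 (0.57, adjusted p = 0.120), KO replicate 4 (0.63, adjusted p = 0.0723) or KO replicate 5 (0.72, adjusted p = 0.0502). At Kcna10 1 of 3 peaks was lower (chr3:107169611-107169904, -1.18, SE 0.40, edgeR adjusted p = 0.0481). It kept its call without WT replicate 8 and lost it without each of the other 5 libraries in turn (-1.39 to -0.86). Of 13 alternatives with a value it passed in 1, and adjusted p in the others ran from 0.0544 (limma-voom) to 0.366. The Kcng, Kcnh, Kcns and Kcnv subfamilies had no edgeR call among 11, 20, 15 and 14 tested peaks, of which 2, 1, 1 and 0 had an unadjusted p below 0.05. The nearest to the threshold among their promoters was Kcng4, a silent subunit, with 32.1, 36.8 and 30.01 CPM in WT and 47.7, 52.0 and 41.9 CPM in KO (0.52, SE 0.18, edgeR adjusted p = 0.0619), named after its value was seen.

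The inward rectifiers of the Kcnj subfamily had peaks called in both directions, 6 higher (8.22%) and 6 lower (8.22%) of 73. Without KO replicate 5 these counts were 2 and 3, without KO replicate 4 the higher ones were 3, and with the authors' library factors, as in the authors' deposited table, the lower ones were 3. Kcnj2 encodes a strong inward rectifier that holds the resting potential of muscle and is mutated in Andersen-Tawil syndrome, a disorder with periodic paralysis. Of its 16 tested peaks, 5 were lower and 13 lay below 0 (11 in the authors' deposited table). Its promoter peak (chr11:111064841-111067889) had 61.3, 80.9 and 59.0 CPM in WT and 48.7, 56.6 and 58.2 CPM in KO. All KO values lay below the WT values, the closest pair 58.2 and 59.0 CPM, and the change did not pass (log2 fold change -0.30, SE 0.18, edgeR adjusted p = 0.405).

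The called Kcnj2 peaks lay downstream, 7572 to 396502 bases from the start site, and only the first of them lies in the gene. At that peak, over the 3′ UTR (chr11:111073100-111074372), the level was 10.6 ± 0.927 CPM in WT and 4.94 ± 1.30 CPM in KO (log2 fold change -1.12, SE 0.26, edgeR adjusted p = 0.000607). It did not pass when KO replicate 5 was omitted (-0.93, adjusted p = 0.0555), with the authors' library factors (-0.94, adjusted p = 0.0652) or in the authors' deposited table (-0.94, adjusted p = 0.0751). The farthest peak (chr11:111462339-111462992) had 5.97, 5.89 and 6.32 CPM in WT and 1.57, 0.904 and 1.92 CPM in KO. WT values were at least 3 times the highest KO value, and the fold change was the lowest among all called potassium channel peaks (-2.05, SE 0.37, edgeR adjusted p = 5.33e-06). The peak chr11:111236568-111237732 had 7.82, 8.01 and 7.37 CPM in WT and 2.51, 2.30 and 3.11 CPM in KO (log2 fold change -1.55, SE 0.30, edgeR adjusted p = 3.44e-05). The peak chr11:111214903-111215756 went from 11.98 ± 1.66 CPM in WT to 4.51 ± 1.44 CPM in KO (log2 fold change -1.42, SE 0.25, edgeR adjusted p = 3.08e-06). The fifth, chr11:111459863-111460536, was at -0.99 (SE 0.30, edgeR adjusted p = 0.0199) and dropped to between -0.87 and -0.79 when WT replicate 4 or either of KO replicates 5 and 7 was omitted (adjusted p = 0.176 to 0.185). These distal peaks lie in the long interval between Kcnj2 and Sox9, a transcription factor gene. Sox9 had 4 tested peaks, none called by edgeR, and a promoter at 0.13 (SE 0.19, edgeR adjusted p = 0.828). Its other tested peaks, all upstream of its start site, were at -0.59 (SE 0.21, edgeR adjusted p = 0.0611), -0.47 and -0.20.

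Kcnj6, a subunit of channels opened by G proteins, and Kcnj15, an inward rectifier gene, are neighbours on chromosome 16, and each had 3 peaks higher, of 14 and 8. The Kcnj6 intronic peak chr16:94765237-94765765 had 4.84, 3.50 and 4.87 CPM in WT and 10.3, 8.71 and 8.97 CPM in KO. No KO value came near the WT values (log2 fold change 1.09, SE 0.27, edgeR adjusted p = 0.00174). The next 2 Kcnj6 peaks, chr16:94752701-94754082 and chr16:94743854-94745760, were at 1.06 (SE 0.26, edgeR adjusted p = 0.00181) and 0.78 (SE 0.21, edgeR adjusted p = 0.00644). The first was at 0.90 without KO replicate 5 (adjusted p = 0.0851), the second at 0.67 without KO replicate 4 (adjusted p = 0.101). Of the 14 tested Kcnj6 peaks 12 had log2 fold changes above 0, and 13 had in the authors' deposited table.

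The 3 called Kcnj15 peaks lie upstream of the gene, 15388 to 31333 bases from its start site, over the long noncoding RNA genes Gm31641 and Gm31754. At chr16:95241688-95242652 the WT libraries had 3.40, 3.04 and 6.98 CPM and the KO libraries 9.31, 11.3 and 7.23 CPM, the closest pair 6.98 and 7.23. The log2 fold change was 1.09 (SE 0.27, edgeR adjusted p = 0.00180), and it was 0.90 when WT replicate 4 was omitted (adjusted p = 0.0517) and 0.95 when KO replicate 5 was (adjusted p = 0.0746). The peaks chr16:95225831-95226618 (1.38, SE 0.36, edgeR adjusted p = 0.00426) and chr16:95239515-95240179 (0.99, SE 0.32, edgeR adjusted p = 0.0295) had 2.08 and 3.10 CPM in WT. Without KO replicate 5 they were at 1.33 and 1.10 (adjusted p = 0.0575 and 0.0643), without WT replicate 3 at 1.19 and 0.82 (adjusted p = 0.0546 and 0.191) and without KO replicate 4 at 1.22 and 0.93 (adjusted p = 0.0744 and 0.140). The second also failed when WT replicate 4 was omitted (1.06, adjusted p = 0.0546), and likewise for KO replicate 7 (1.00, adjusted p = 0.0826). Flanking genes had calls in other directions: Dyrk1a, a kinase gene, had 1 higher and 1 lower of 19, and Erg, an endothelial transcription factor gene, had 2 lower of 11.

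Kcnj9, another subunit of channels opened by G proteins, had 1 of 2 peaks lower (chr1:172333439-172334039, -1.01, SE 0.31, edgeR adjusted p = 0.0214), and the call ended when WT replicates 4 or 8 or KO replicate 5 were omitted (-0.87, -0.88 and -0.67). The remaining Kcnj genes had no edgeR call. They included the pores of the ATP-sensitive channel, Kcnj11 with 2 tested peaks and Kcnj8 with 5, and Kcnj12, a strong inward rectifier with 15. Per kb of peak, the Kcnj11 promoter peak was the most open of the potassium channel promoters, at 29.8 CPM per kb in WT and 26.8 in KO. Its log2 fold change was -0.15 (SE 0.17, edgeR adjusted p = 0.753), with 104, 144 and 90.7 CPM in WT and 104, 107 and 94.3 CPM in KO.

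**Figure D3:**
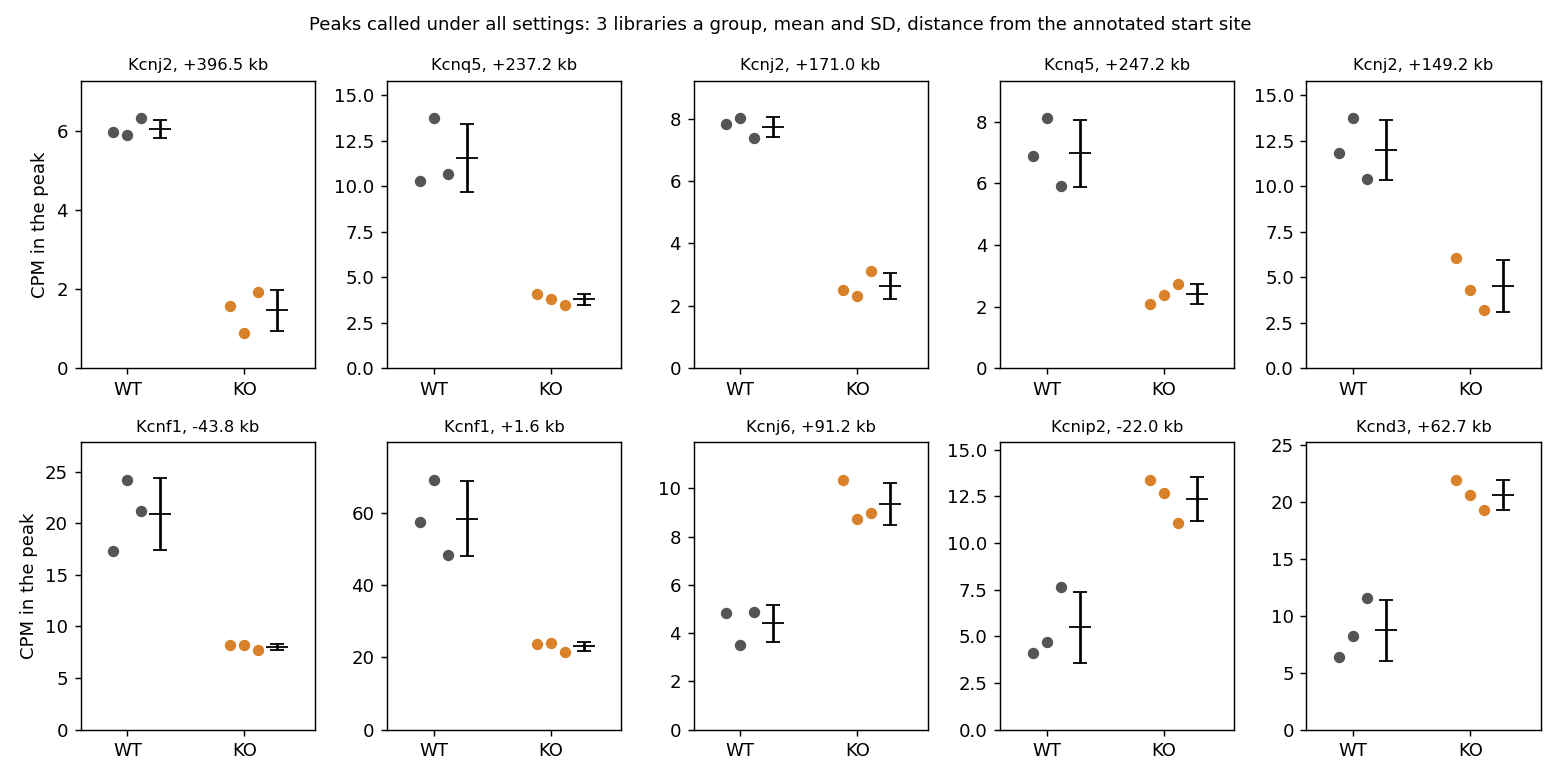
CPM per library (vertical axis, from 0) for the 10 peaks called as reported, in 13 other settings and in the authors' deposited table, with 3 WT and 3 KO libraries as points, the mean as a long tick and the SD as a bar; titles give the distance to the annotated start site. In each of the 10 panels the groups do not overlap, 7 lower in KO at Kcnj2, Kcnq5 and Kcnf1 and 3 higher at Kcnj6, Kcnip2 and Kcnd3. The peaks were picked by their calls on these counts, so this separation is no separate support.

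Among the calcium- and sodium-activated channels, Kcnma1, the large-conductance calcium-activated pore, held the most peaks of any potassium channel gene (68, of which 67 were tested). Of these 4 were lower and 1 higher, and the gene's median was -0.10. The lower ones are intronic. At chr14:23816529-23817795 the level was 11.5, 15.7 and 11.2 CPM in WT and 5.33, 7.97 and 5.49 CPM in KO (log2 fold change -1.03, SE 0.24, edgeR adjusted p = 0.000750), a separation that kept its call without each library in turn. At chr14:23874155-23875186 the level fell from 32.0 ± 5.52 to 19.0 ± 2.93 CPM (-0.76, SE 0.19, edgeR adjusted p = 0.00298), and without KO replicate 4 the change was -0.63 (adjusted p = 0.0792). Peaks chr14:23791370-23793876 (-0.68) and chr14:23825148-23825817 (-0.86) had edgeR adjusted p = 0.00938 and 0.0301. The first was at -0.33 without WT replicate 4 (adjusted p = 0.368), -0.69 without KO replicate 5 and -0.61 without KO replicate 7, and the second lost its call without each of the 6 libraries (-0.93 to -0.67). With the authors' library factors none of the 4 lower peaks passed (log2 fold changes -0.83 to -0.52). The higher peak (chr14:23911004-23911569) had 4.01, 5.15 and 7.11 CPM in WT and 9.93, 11.4 and 10.99 CPM in KO (1.01, SE 0.25, edgeR adjusted p = 0.00243). Without WT replicate 3 it was at 0.85 (adjusted p = 0.0580). The Kcnma1 promoter had a log2 fold change of -0.08 (SE 0.19, edgeR adjusted p = 0.912).

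Kcnt1, a sodium-activated pore, had its only peak lower (chr2:25932849-25933650, 8.75, 11.1 and 7.11 CPM in WT and 4.81, 4.19 and 3.57 CPM in KO, log2 fold change -1.11, SE 0.27, edgeR adjusted p = 0.00147). The peak lies over the 3′ UTR of Camsap1, outside Kcnt1, and without WT replicate 4 it was at -0.90 (adjusted p = 0.0561). With the authors' library factors it was at -0.94 (adjusted p = 0.0697). Kcnn3, a small-conductance calcium-activated pore, had 1 of 4 peaks higher (chr3:89578489-89579455, 0.84, SE 0.23, edgeR adjusted p = 0.00547). It had 6.997, 8.56 and 9.48 CPM in WT and 13.7, 13.7 and 17.4 CPM in KO, and was at 0.75 when WT replicate 3 was omitted (adjusted p = 0.0643) and 0.74 when KO replicate 7 was (adjusted p = 0.0610). Its paralogue Kcnn2 had no edgeR call among 5 peaks, 0 of them at an unadjusted p below 0.05. The tandem-pore channels (Kcnk, 13 genes) had no edgeR call among 34 tested peaks, of which 6 had an unadjusted p below 0.05, and their log2 fold changes ran from -1.11 to 1.03.

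Auxiliary subunits had 2 peaks higher and 1 lower of 57. Kcnip2, a calcium-binding partner of the A-type pores encoded by Kcnd genes, had a peak 21972 bases upstream (chr19:45837494-45838571) with 4.12, 4.69 and 7.64 CPM in WT and 13.4, 12.7 and 11.1 CPM in KO. The KO libraries were all higher (log2 fold change 1.19, SE 0.25, edgeR adjusted p = 1.00e-04). That peak lies inside Armh3, and the Kcnip2 promoter was at 0.10 (SE 0.28, edgeR adjusted p = 0.920). Kcnab2, a beta subunit with an aldo-keto reductase fold, was the only gene of the family with a promoter called higher (chr4:152477345-152478446, the window printed above), and the peak also overlaps Nphp4. It had 17.9, 11.2 and 23.3 CPM in WT and 26.3, 32.2 and 27.3 CPM in KO (log2 fold change 0.72, SE 0.20, edgeR adjusted p = 0.00638). WT replicate 4 had the lowest value, and without it the change was 0.51 (adjusted p = 0.110), while without KO replicate 5 it was 0.66 (adjusted p = 0.102). Kcne4, a single-span beta subunit, had 1 of 9 peaks lower (chr1:78916662-78917147, -1.24, SE 0.39, edgeR adjusted p = 0.0260), 99978 bases from its start site in the noncoding gene Gm29536. That call held without WT replicate 8 and ended without each of the other 5 libraries (-1.28 to -1.03). Kcnmb subunits (6 tested peaks) and the regulator Kcnrg (16) had no edgeR call, and 0 of these peaks had an unadjusted p below 0.05.

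When counts were summed over all peaks of a gene and tested across 15915 genes, 5 potassium channel genes of 84 were lower and 1 was higher. Over all genes 2.99% were lower and 1.8% higher. Kcnf1 fell from 89.0 ± 12.5 to 36.2 ± 3.41 summed CPM (log2 fold change -1.30, SE 0.13, edgeR adjusted p = 1.48e-05). Kcnq5 fell from 77.3 ± 11.6 to 38.4 ± 3.20 (-1.01, SE 0.13, edgeR adjusted p = 9.87e-05) and Kcnj2 from 161.6 ± 20.4 to 110.9 ± 3.11 summed CPM (-0.54, SE 0.11, edgeR adjusted p = 0.00678). Kcnt1, whose sum is the 1 peak over Camsap1 described above, was at -1.12 (SE 0.28, edgeR adjusted p = 0.0213). Kcnb2 was at -0.76 (SE 0.20, edgeR adjusted p = 0.0334). Many summed peaks lie outside the assigned gene. Inside the RefSeq span were 1 of 6 at Kcnf1, 12 of 14 at Kcnq5, 2 of 17 at Kcnj2, 4 of 7 at Kcnb2 and 6 of 6 at Kcnd3. Kcnd3 rose from 28.5 ± 6.89 to 47.5 ± 4.87 summed CPM (0.75, SE 0.15, edgeR adjusted p = 0.00537). Its 3 WT libraries had 24.98, 24.2 and 36.5 and its 3 KO libraries 51.1, 49.5 and 42.0 summed CPM, with no overlap.

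Kcnf1 and Kcnd3 kept these calls without each library in turn and with the authors' library factors. Kcnq5 lost its call only with those factors (-0.81, adjusted p = 0.153). Kcnj2 lost its call with those factors (-0.34, adjusted p = 0.673), as it did when KO replicate 5 was omitted (-0.52, adjusted p = 0.0781). Kcnb2 lost its call when WT replicate 8 or either of KO replicates 5 and 7 was omitted (-0.58, -0.54 and -0.83), with total counts (-0.70, adjusted p = 0.0688) and with the authors' factors (-0.54, adjusted p = 0.524). Kcnt1 lost its call with those factors (-0.94, adjusted p = 0.156) and without WT replicates 3 or 4 or KO replicates 5 or 7 (-1.17 to -0.94). Kcnj6 and Kcnj15 were at 0.38 and 0.42 with edgeR adjusted p = 0.0873 and 0.0675, and both passed without WT replicate 8 (0.48 and 0.56, adjusted p = 0.0352 and 0.0122).

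**Figure D4:**
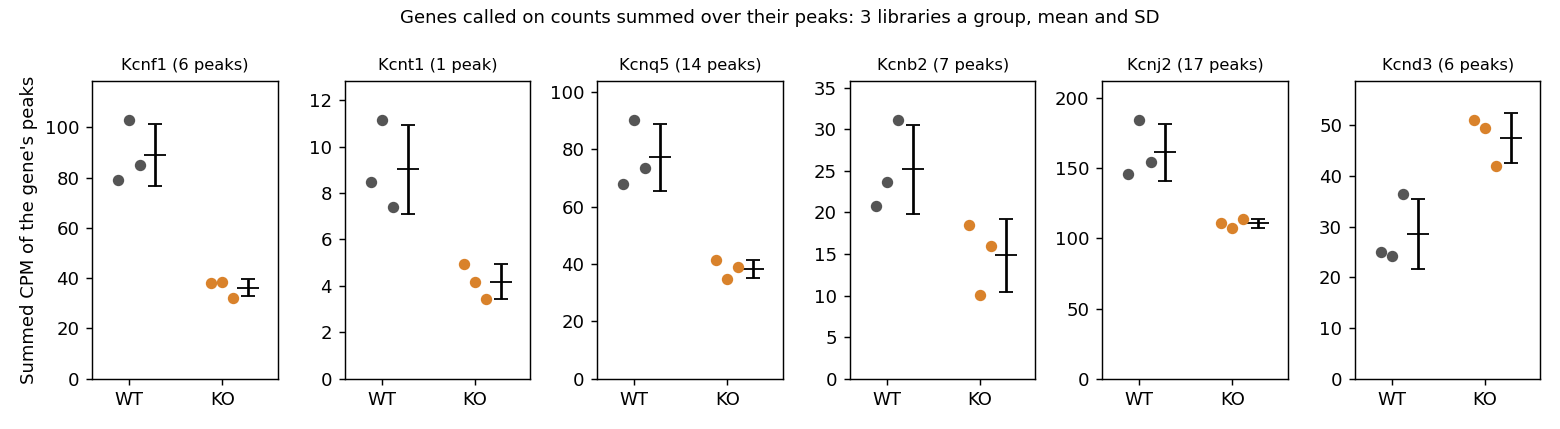
Summed CPM over all peaks of a gene (vertical axis, from 0) in each of 3 WT and 3 KO libraries (points), with the mean as a long tick and the SD as a bar, for the 6 potassium channel genes called on summed counts. The groups do not overlap in the 6 panels, and Kcnd3 is the only one of them with higher values in KO. The genes were picked by their calls on these counts, so this separation is no separate support.

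Other channel genes known from skeletal muscle did not pass by their sums. At Kcnc4, a fast inactivating subunit of muscle, the sum was 132.7, 169.0 and 134.2 CPM in WT and 108.7, 126.5 and 104.4 CPM in KO. The groups did not overlap, but the log2 fold change of -0.36 did not pass (SE 0.12, edgeR adjusted p = 0.106). Kcnab1 was at -0.31 (SE 0.13, edgeR adjusted p = 0.237) and Kcnj11 at -0.21 (SE 0.14, edgeR adjusted p = 0.524). Sums of Kcnj12 (0.02), Kcnj8 (-0.01), Kcnn2 (0.01), Kcnma1 (-0.08), Kcna7 (-0.07), Kcna5 (0.11) and Kcne3 (-0.15) had edgeR adjusted p from 0.813 to 0.991, and each of these 7 changed sign in at least 1 other setting. Kcnc1 (0.21), Kcnq1 (0.16) and Kcnn3 (0.35) did not pass either, with edgeR adjusted p from 0.134 to 0.519. At Kcnab2 the sum was at 0.38 (SE 0.15, edgeR adjusted p = 0.212), and without WT replicate 8 it was 0.63 (adjusted p = 0.00507).

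Class sums are given as values, since the exact permutation test of 3 against 3 libraries cannot go below p = 0.1. The 182 peaks of voltage-gated alpha subunits had 1659, 1836 and 1635 CPM in WT and 1682, 1674 and 1584 CPM in KO, a ratio of KO to WT of 0.963 (exact permutation p = 0.6, two-sided). Inward rectifiers had a ratio of 0.979 (exact permutation p = 0.9), calcium- or sodium-activated channels 0.975 (exact permutation p = 0.9) and auxiliary subunits 1.05 (exact permutation p = 0.6). For the tandem-pore channels, the 3 KO libraries, with 254, 245 and 243 CPM, were all above the 3 WT libraries, with 241, 223 and 237 CPM. Their ratio was 1.06 with an exact permutation p = 0.1, and 0.6 when adjusted over the 6 classes. The sum of all 464 peaks had a ratio of 0.981 (exact permutation p = 0.9).

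The other genes of muscle membrane excitability were a list of 30, mostly for sodium, calcium and chloride channels, ion transporters and ankyrins. It also holds Tmem38a, Tmem38b, Dlg1 and the potassium channel partners Abcc8, Abcc9, Dpp6 and Dpp10. The list had 19 peaks higher and 15 lower of 326 tested, where 2.77% of all tested peaks were higher and 4.23% lower. Among the partners, Abcc8 had 1 of 11 peaks lower and Dpp10 1 of 7, while Abcc9 (5 tested peaks) and Dpp6 (9) had no edgeR call. None of the list's 29 tested promoters was called by edgeR. By summed counts 2 genes of the list were higher and 2 lower, of which 3 are described here. Slc12a7, a potassium-chloride cotransporter, had 3 of 6 peaks higher (sum 0.55, SE 0.11, edgeR adjusted p = 0.00417). Cacna2d1, an auxiliary subunit of the calcium channel of the T-tubule, had 4 of 29 peaks lower (sum -0.55, SE 0.13, edgeR adjusted p = 0.0126). Tmem38b, a potassium-permeable channel of the sarcoplasmic reticulum, had 2 of 20 lower (sum -0.48, SE 0.12, edgeR adjusted p = 0.0180). Clcn1, the main chloride channel of muscle, and Scn4a, its sodium channel, had 4 and 5 tested peaks, none called by edgeR, and summed log2 fold changes of -0.35 (edgeR adjusted p = 0.190) and 0.08 (edgeR adjusted p = 0.870).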

How the data were processed

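ATAC-seq libraries from 3 Prr14-WT and 3 Prr14-KO quadriceps samples were compared. The authors deposited a table of peaks on GRCm38 with a read count per library, a normalized signal (each count divided by 1 factor per library), the log2 fold change with its test statistic (a score), p-value and adjusted p-value, and the annotated gene with its distance. Per the submitters' processing notes, Trimmomatic, BWA, MACS2, deepTools, bedtools and DESeq2 1.6.3 were used, and how reads were counted or shifted is not given in the sources used here. Peaks are a single set shared by all libraries. The counts were tested with edgeR 4.0.16 (quasi-likelihood, TMM, default count filter with a minimum of 10), KO against WT without covariates, over 73896 peaks, and again after summing counts per annotated gene. Values in CPM are scaled by TMM and given as mean ± SD, n = 3. Functional class sums were compared by an exact permutation test. Depth was 7608514 to 12061822 counts per library. The procedure was tested on simulated data, with 40 changed peaks or genes per size. Of peaks set to 2 and 0.5 times in KO, 75% and 45% were recovered. Of those set to 1.5, 4 and 0.25 times, 20%, 100% and 92.5% were. For gene sums, 97.5% were recovered at 2 and at 0.5 times and 75% at 1.5 times. The least covered features were not drawn for change, and a peak without a call can still differ. Members and lists were chosen with earlier results of these data known. Genes were named where they had 3 or more called peaks, a called promoter or a called sum, where a peak was among the 10 with the smallest adjusted p in each direction, or where the channel is known from skeletal muscle; Kcna10, Kcne4, Kcnj9, the flanking genes and the remaining single peaks were named after their values were seen. Some named genes are not reported here. Alternatives were DESeq2 1.42.0 size factors and Wald test, total counts, the authors' factors, limma 3.58.1 voom, no filter, a minimum count of 30, a 1 kb promoter window and leaving out each library. RefSeq GRCm38.p6 gave gene spans for all 84 genes and promoter sequences for 63.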

Additional observations from a re-analysis of the deposited data

How the results depend on the processing

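Of 1195 recomputed values, 982 were classed as unchanged. For fold changes this means the same direction and the same side of the threshold. Counts of calls were allowed some movement. Classed so were 19 higher potassium channel peaks with total counts (13 as reported). The 16 lower ones with the DESeq2 Wald test (23 as reported) were too. With the authors' library factors, 9 potassium channel peaks were lower (23 as reported), 7 in the authors' deposited table, and 12 to 22 with each library left out. Higher peaks (13 as reported) ranged from 6 to 18 with each library left out. Over all peaks, 1409 to 3111 were lower (3128 as reported) and 959 to 2248 higher (2049 as reported) with each library left out. Genes higher by summed counts were 3 with total counts and 1 to 4 with each library left out; genes lower were 1 with the authors' factors and 2 to 5 with each library left out. Promoters called higher were 2 with DESeq2 size factors, total counts, the DESeq2 Wald test, no filter or a minimum count of 30, 0 with the authors' factors, and 0 to 2 with each library left out; promoters called lower were 1 with the authors' factors or a 1 kb window and 1 to 2 with each library left out. Class sums, which 3 against 3 libraries cannot bring past the threshold, changed sign (log2 KO over WT) with the authors' factors for voltage-gated (0.14), inward rectifier (0.15), calcium- or sodium-activated (0.15), other (0.18) and all channels (0.17), and with total counts for inward rectifier (0.019), calcium- or sodium-activated (0.012), other (0.021) and all channels (0.020). With each library left out these 4 sums ranged from -0.10 to 0.083, -0.099 to 0.052, -0.12 to 0.067 and -0.064 to 0.029. Sums of single genes, none past the threshold, changed sign with the authors' factors at Kcna7 (0.11), Kcne3 (0.069), Kcnj8 (0.20) and Kcnma1 (0.12), and with total counts at Kcnj8 (0.052). With each library left out the ranges were -0.0088 to 0.17 at Kcna5, -0.23 to 0.14 at Kcna7, -0.090 to 0.20 at Kcnj12, -0.045 to 0.027 at Kcnj8, -0.13 to 0.029 at Kcnma1, -0.033 to 0.074 at Kcnn2 and -0.063 to 0.38 at the Kcnd3 promoter. The authors' factors ran only from 0.977 to 1.035, so the setting with them leaves differences in reads in peaks almost uncorrected. Which scaling is nearer the truth was not tested. The cause of the changes listed here was not tested. Peaks of a few CPM rest on few reads per library, which limits the precision of their fold changes. No paired analysis was possible because the genotypes share only replicate number 4.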
